A study of Mus musculus with 6 samples.

Results

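Nfe2l2, the gene of the transcription factor Nrf2, and 9 genes that Nrf2 is known to switch on were followed in RNA-seq of mouse primary T cells. The 10 genes were taken by their symbols from a table of 54532 genes, and all 10 were among the 14883 genes with enough counts to be tested. The T cells, described in the study's methods as spleen CD8T cells activated with anti-CD3/CD28 beads, were cocultured for 24 hr with activated macrophages. In the control group (3 samples) the cocultured cells had received no DB2313, and in the DB2313 group (3 samples) they had been given DB2313, which blocks the myeloid transcription factor Spi1 and for which the methods state 14 nM. In both groups the macrophages had been activated with IFN-γ at 10 ng/mL for 12 hr, and the methods describe them as thioglycolate-elicited peritoneal macrophages. GEO's labels give the same 2 groups but call the cocultured cells DC. Neither source gives the strain or age of the mice that supplied the cells, and neither says whether the 3 samples of a group were separate cultures, so p-values measure only the spread between these samples.

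Between 16611975 and 18596217 reads were counted on genes in each library. Levels are given as CPM, read counts divided by a library total that was scaled by TMM, a method that assumes that most genes do not change. A gene was called higher or lower when its p, taken from edgeR's quasi-likelihood test and adjusted over all tested genes by the Benjamini-Hochberg method, was below 0.05. The libraries held RNA of more than T cells. All 20 T cell markers rose with DB2313, by a median of 0.61 on the log2 scale, and took 0.335% to 0.338% of the counts in the control group and 0.541% to 0.543% in the DB2313 group. Of 20 macrophage markers, 18 fell and 2 rose (Marco and Trem2), the median log2 fold change being -1.18, and they took 1.13% to 1.16% and 0.421% to 0.435% of the counts. Among those that fell were Spi1 (-0.88), which DB2313 blocks, and C1qa (-1.71), C1qb (-0.811) and C1qc (-0.825). The paper reports that C1q genes were lower when monocytes given GM-CSF also received DB2313. How far DB2313 lowered such genes within cells was not tested, so these markers do not measure macrophage content alone.

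Nrf2 is the main activator of the antioxidant response. In resting cells the adaptor Keap1 holds it in the cytoplasm and hands it to the ubiquitin ligase Cul3 for degradation, and oxidants or electrophiles that modify Keap1 let newly made Nrf2 reach the nucleus. There it pairs with small Maf proteins and binds antioxidant response elements, from which the repressor Bach1 can displace it. Its targets make glutathione, reduce thioredoxin, repair peroxiredoxins and supply NADPH. Activated macrophages and activated T cells both use these systems against the oxidants that they produce. Nrf2 is controlled largely as a protein, which RNA counts do not measure.

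Of the 10 genes, 9 were lower and 1 was higher in the DB2313 group. Among all tested genes, 24.6% were lower and 20.8% higher by the same rule. Gclc was the higher gene. The 9 lower genes ran from Gclm, which was 8.68% lower and only just past the threshold, to Me1, which was 49.9% lower. The groups did not overlap in any of the 10 genes, which held for 53.1% of all tested genes. None of the 10 also passed an absolute log2 fold change of 1, the limit that 6.67% of all tested genes passed in either direction. The median log2 fold change of the 10 genes was -0.41, against 0.019 over all tested genes. In these bulk samples, fewer cells of a type and less RNA of a gene per cell cannot be told apart. The part of the marker shifts given above in these results was not tested.

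**Figure D1:**
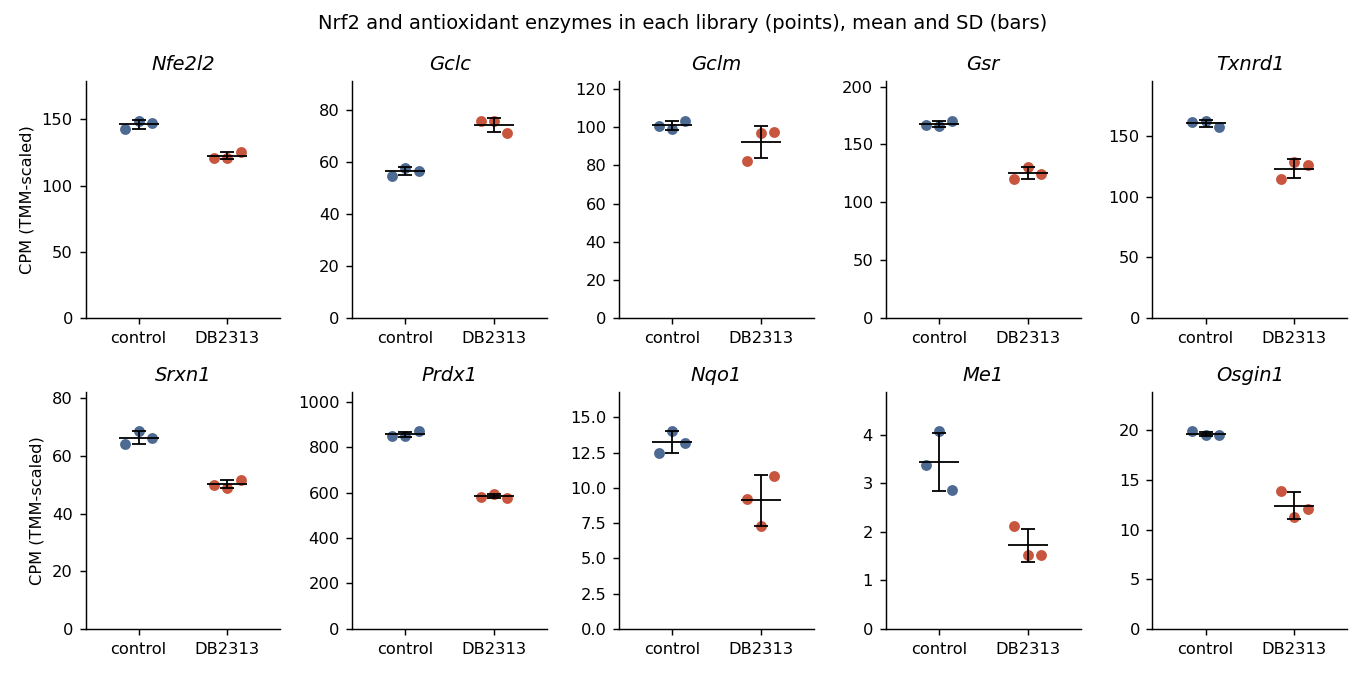
CPM (vertical axes, each from 0 on its own scale) of Nfe2l2 and the 9 enzyme genes in the 3 control and 3 DB2313 libraries, with a point for each library and bars for the mean and SD. Gclc lies higher in every DB2313 library (71.1 to 75.8 CPM against 54.6 to 57.6), and the other genes lie lower, with Gclm closest to its control range.

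Nfe2l2 (ENSMUSG00000015839, chromosome 2 from 75675513 to 75704641 in GRCm38 coordinates, minus strand) was at 143, 149 and 147 CPM in the control libraries and at 121, 121 and 126 CPM in the DB2313 libraries. Every DB2313 library lay below every control library. The log2 fold change came to -0.26 (standard error 0.04, adjusted p = 6.04e-06 in edgeR's quasi-likelihood test), or 16.3% lower. This was the smallest fall among the 10 genes after that of Gclm.

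Of the glutathione synthesis genes followed here, Gclc rose, while Gclm was only just past the threshold as lower. Gclc encodes the catalytic subunit and Gclm the modifier subunit of glutamate-cysteine ligase, the enzyme of the rate-limiting step, in which glutamate and cysteine are joined. Gclc (ENSMUSG00000032350, plus strand of chromosome 9 from 77754535 to 77794485) had 985, 990 and 927 counts in the control group and 1394, 1293 and 1309 in the DB2313 group, or 54.6, 57.6 and 56.6 and 75.5, 75.8 and 71.1 CPM. All DB2313 libraries were higher, with a log2 fold change of 0.40 (standard error 0.05, adjusted p = 1.04e-06 in edgeR's quasi-likelihood test). When the libraries were scaled to the T cell markers instead, which lowers the median of all genes to -0.57, Gclc turned to -0.20.

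Gclm (ENSMUSG00000028124, plus strand of chromosome 3 from 122245557 to 122270732) was at 100.5, 98.8 and 103 CPM in the control libraries and at 82.3, 96.7 and 97.5 CPM with DB2313. A single DB2313 library was far below the rest, and the other DB2313 libraries lay just under the control range. The log2 fold change of -0.13 (standard error 0.05) had an adjusted p = 0.0481 in edgeR's quasi-likelihood test, and the call was lost with DESeq2 (adjusted p = 0.123), with library size or upper quartile scaling and without DB2313 replicate 1 (log2 fold change -0.055), control replicate 1, control replicate 2 or control replicate 3, each in turn.

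The ratio of Gclm to Gclc counts within a library does not depend on how libraries are scaled. It was 1.84, 1.72 and 1.83 in the control libraries and 1.09, 1.28 and 1.37 in the DB2313 libraries, so that the groups did not overlap. The log2 ratio differed by -0.53 (standard error 0.10; p = 0.1 in an exact two-sided permutation test, which cannot go lower with 3 libraries a group, and 0.15 adjusted over 3 ratios).

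Gsr encodes glutathione reductase, which returns oxidized glutathione to its reduced form with NADPH. Gsr (ENSMUSG00000031584, plus strand of chromosome 8 from 33652523 to 33698163) was at 167, 166 and 171 CPM in the control libraries and at 120.2, 131 and 124 CPM with DB2313. The DB2313 libraries were all lower, by 25.4% (log2 fold change -0.42, standard error 0.04, adjusted p = 3.79e-09 in edgeR's quasi-likelihood test).

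The thioredoxin genes fell together. Txnrd1 encodes the cytosolic thioredoxin reductase, a selenoprotein that keeps thioredoxin reduced. Txnrd1 (ENSMUSG00000020250, plus strand of chromosome 10 from 82833951 to 82897712) was at 162, 163 and 157 CPM in the control libraries and at 114, 129 and 126 CPM with DB2313, a log2 fold change of -0.38 (standard error 0.04, adjusted p = 8.49e-08 in edgeR's quasi-likelihood test). The fall was close in size to that of Gsr. The ratio of Txnrd1 to Gsr counts was 0.969, 0.98 and 0.919 in the control libraries and 0.951, 0.983 and 1.02 with DB2313. These ranges overlapped, and the log2 ratio differed by 0.040 (standard error 0.040, two-sided exact permutation test p = 0.4).

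Prdx1 encodes peroxiredoxin 1, an abundant cytosolic peroxidase that thioredoxin keeps active. Prdx1 (ENSMUSG00000028691, plus strand of chromosome 4 from 116685544 to 116700822) was at 850.3, 850.1 and 869.8 CPM in the control libraries and at 579.8, 593 and 577 CPM with DB2313. The libraries of each group were tightly grouped and far apart from those of the other group, and the fall of 31.9% had the lowest adjusted p of the 10 genes (log2 fold change -0.56, standard error 0.03, adjusted p = 3.35e-13 in edgeR's quasi-likelihood test).

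Srxn1 encodes sulfiredoxin, which repairs overoxidized peroxiredoxins. Srxn1 (ENSMUSG00000032802, plus strand of chromosome 2 from 152105516 to 152111376) was at 64.1, 68.5 and 66.3 CPM in the control libraries and at 49.97, 48.9 and 51.7 CPM with DB2313, a log2 fold change of -0.40 (standard error 0.06, adjusted p = 1.78e-06 in edgeR's quasi-likelihood test). Srxn1 fell less than Prdx1, its substrate. There were 0.0754, 0.0806 and 0.0762 Srxn1 counts for each Prdx1 count in the control libraries and 0.0862, 0.0824 and 0.0895 with DB2313. The groups did not overlap, and the log2 ratio differed by 0.15 (standard error 0.05, two-sided exact permutation test p = 0.1, adjusted p = 0.15 over the 3 ratios).

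**Figure D2:**
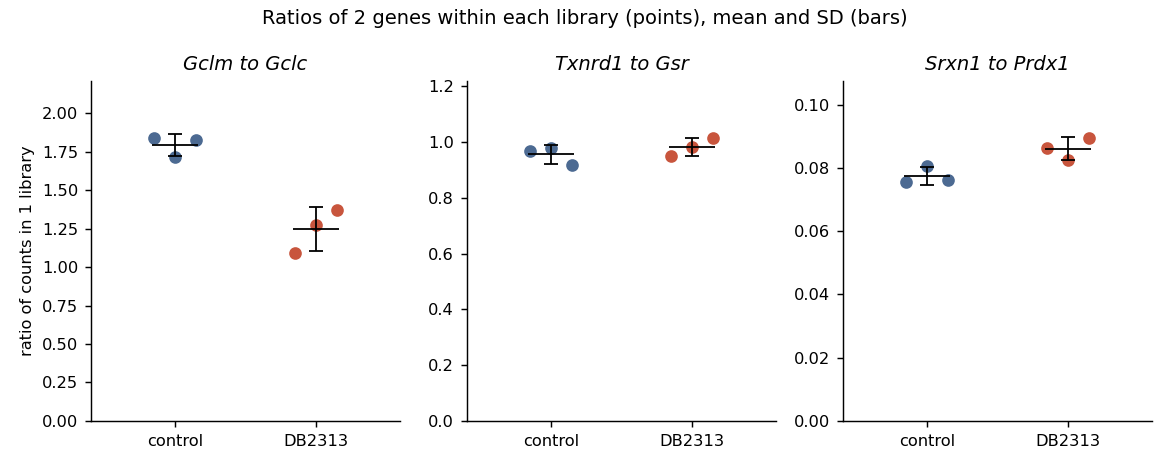
Ratios of the counts of 2 genes within each library (vertical axes from 0, no unit), with a point for each of the 3 control and 3 DB2313 libraries and bars for the mean and SD. The Gclm to Gclc ratio went from 1.79 ± 0.07 to 1.25 ± 0.14 (SD, n = 3 each), whereas the Txnrd1 to Gsr ratios of the groups overlap.

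The remaining genes were counted less often and had larger errors. Nqo1 encodes NAD(P)H quinone dehydrogenase 1, which reduces quinones and is widely used as a readout of Nrf2. Nqo1 (ENSMUSG00000003849, minus strand of chromosome 8 from 107388225 to 107403206) had 225, 241 and 216 counts in the control group and 170, 124 and 200 with DB2313, or 12.5, 14.02 and 13.2 and 9.20, 7.27 and 10.9 CPM. The DB2313 libraries spread more widely but stayed below the control range, with a log2 fold change of -0.53 (standard error 0.13, adjusted p = 0.00167 in edgeR's quasi-likelihood test).

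Osgin1 encodes oxidative stress induced growth inhibitor 1. Osgin1 (ENSMUSG00000074063, plus strand of chromosome 8 from 119434124 to 119446256) was at 19.9, 19.6 and 19.6 CPM in the control libraries and at 13.9, 11.3 and 12.1 CPM with DB2313, which was 36.8% lower. The control libraries were nearly equal, with a log2 fold change of -0.66 (standard error 0.10, adjusted p = 6.98e-06 in edgeR's quasi-likelihood test).

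Me1 encodes the cytosolic malic enzyme, which makes NADPH from malate. Me1 (ENSMUSG00000032418, minus strand of chromosome 9 from 86581371 to 86695953) had 61, 70 and 47 counts in the control group and 39, 26 and 28 with DB2313, or 3.38, 4.07 and 2.87 and 2.11, 1.52 and 1.52 CPM. These were the lowest counts of the 10 genes, and the groups did not overlap. Me1 had the largest fall and the largest error, with a log2 fold change of -0.997 (standard error 0.25, adjusted p = 0.00229 in edgeR's quasi-likelihood test). It lay just inside the limit of 1, and leaving out each library in turn gave values from -1.17 to -0.86.

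Levels of different genes were compared per kilobase of the gene length given in the table (RPKM, from the TMM-scaled CPM). In the control group Prdx1 was highest, at 281.5 ± 3.72 RPKM, followed by Gsr at 60.9 ± 0.93, Nfe2l2 at 38.6 ± 0.87, Srxn1 at 23.5 ± 0.78, Txnrd1 at 22.6 ± 0.43, Gclm at 16.0 ± 0.37, Gclc at 14.9 ± 0.41, Nqo1 at 8.52 ± 0.50, Osgin1 at 7.35 ± 0.075 and Me1 at 0.894 ± 0.157 RPKM (SD, n = 3). Only Srxn1 and Txnrd1 overlapped among neighbours in this order. In the DB2313 group Gclc, at 19.7 ± 0.69 RPKM, lay above Srxn1 at 17.8 ± 0.50, Txnrd1 at 17.4 ± 1.08 and Gclm at 14.7 ± 1.36 RPKM (SD, n = 3). Gclm thus lay above Gclc per length in every control library and below it in every DB2313 library. The other genes kept their places. Srxn1 again overlapped Txnrd1, and Nqo1 at 5.87 ± 1.16 RPKM overlapped Osgin1 at 4.64 ± 0.51 RPKM (SD, n = 3).

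The windows around the transcription starts were searched for the letters that Nrf2 binds, since 9 of these genes are listed as its targets. RefSeq windows of 300 bases on GRCm38.p6, 250 before and 50 after each start, were given for 8 of the 10 genes (11 windows), and none for Gclc and Gsr. The core of the antioxidant response element was searched as TGACNNNGC or TGAGNNNGC on both strands. It was found in 7 of the 11 windows, 1 window for each of 7 genes, against 27.8% of all 32851 promoter windows. It was not found in the Nqo1 window, and a core outside these 300 bases would have been missed. AP-1 sites, TGACTCA or TGAGTCA, can overlap these letters. This was so in 4 of the 11 windows, those of Srxn1, Prdx1, Osgin1 and Me1, against 0.822% of all windows. The stretches around these matches are shown because they hold both motifs at once, with the antioxidant response element core in capitals, 5′ to 3′ on the strand of the gene. A match of letters is a description and does not show that Nrf2 was bound in these cells. The RefSeq start of Osgin1 and that of the Txnrd1 window with a match lie well downstream of the gene starts in the count table.
Srxn1, chr2:152105449-152105517, plus strand, match at -45 to -37: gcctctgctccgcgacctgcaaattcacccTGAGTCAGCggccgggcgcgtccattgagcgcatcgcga
Prdx1, chr4:116685436-116685504, plus strand, match at -133 to -125: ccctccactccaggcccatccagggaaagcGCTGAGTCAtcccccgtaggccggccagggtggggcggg
Osgin1, chr8:119437018-119437086, plus strand, match at -99 to -91: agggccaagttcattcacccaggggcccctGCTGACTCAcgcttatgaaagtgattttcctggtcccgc
Me1, chr9:86695912-86695920, minus strand, match at -6 to 3: TGACTCAGC

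The matches of Nfe2l2, Gclm and Txnrd1 held no AP-1 site. The log2 fold changes of the genes with overlapping motifs were -0.40 (Srxn1), -0.56 (Prdx1), -0.66 (Osgin1) and -0.997 (Me1). Those of the genes with a match but no AP-1 site were -0.26 (Nfe2l2), -0.13 (Gclm) and -0.38 (Txnrd1). Txnrd1 held its 1 match in only 1 of its 3 windows. Nqo1, whose window holds neither motif, was at -0.53. Whether the motifs go with the size of the change was not tested. The stretches of Nfe2l2 and Gclm are shown for contrast as matches without an AP-1 site, with the match in capitals.
Nfe2l2, chr2:75704865-75704913, minus strand, match at -240 to -232: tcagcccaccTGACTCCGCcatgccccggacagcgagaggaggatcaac
Gclm, chr3:122245393-122245461, plus strand, match at -134 to -126: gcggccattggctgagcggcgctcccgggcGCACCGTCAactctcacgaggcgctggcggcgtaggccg

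**Figure D3:**
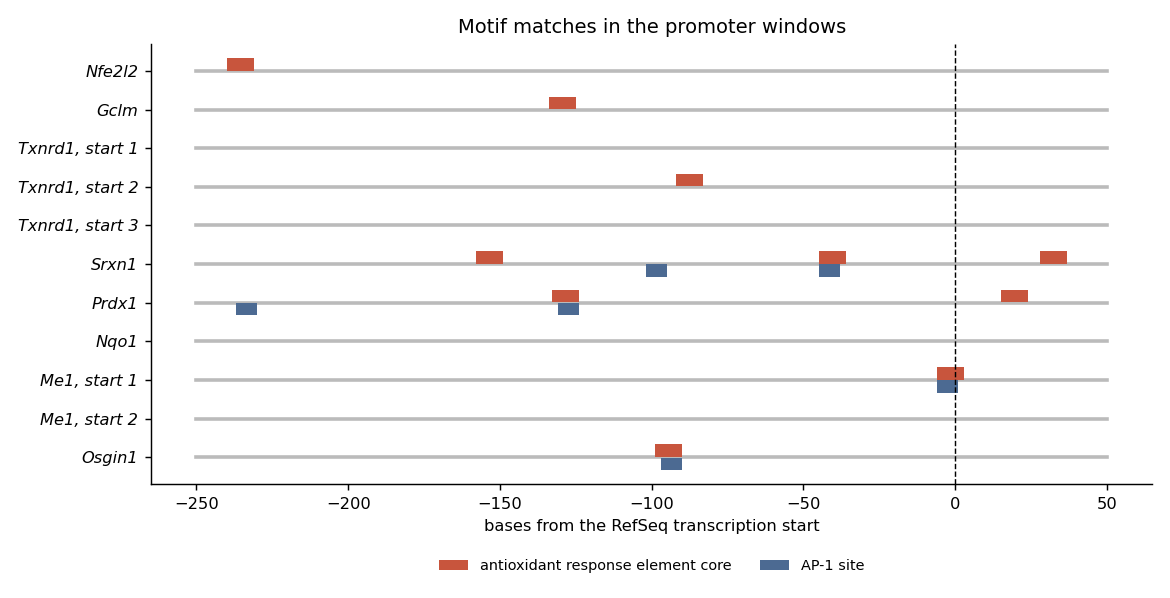
Matches to the antioxidant response element core (red) and to AP-1 sites (blue) in the 11 promoter windows of 8 genes, by distance in bases from the RefSeq transcription start (dashed line). The 2 motifs overlap in Srxn1, Prdx1, Osgin1 and the first start of Me1, and the Nqo1 window holds neither.

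The genes that control Nrf2 did not share 1 direction. Of 10 regulators and partners, 4 were lower, 3 were higher and 3 were not past the threshold, with a median log2 fold change of -0.005. Among all tested genes, 24.6% were lower and 20.8% higher, so these counts say little about the list. Keap1, the adaptor that holds Nrf2, went from 109 ± 3.16 to 116 ± 0.90 CPM (SD, n = 3 each), a log2 fold change of 0.090 that was not past the threshold (adjusted p = 0.0699 in edgeR's quasi-likelihood test) but was under scaling by library size or upper quartile and when control replicate 3 was left out (0.11). Cul3 was slightly higher, at 0.12 (standard error 0.05), and this call was lost with DESeq2 at the same size (0.12) and when control replicate 1, control replicate 2 or DB2313 replicate 3 was left out, the last of which lowered it to 0.066. Bach1, the repressor that competes with Nrf2, fell by 0.34 on the log2 scale (standard error 0.05). Sqstm1, which encodes the autophagy receptor p62 that can bind Keap1, fell by 0.44 (standard error 0.03), and Nfe2l1, which encodes the related factor Nrf1, fell by 0.45 (standard error 0.04).

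A further 20 genes known as Nrf2 targets were mostly lower. Of the 19 tested, 16 fell, 1 rose (Ephx1) and 2 were not past the threshold, with a median log2 fold change of -0.52. Of all tested genes, 24.6% fell and 20.8% rose by the same rule. Gpx2 had too few counts to be tested. The most highly counted were the ferritin chains, which store iron. Fth1 went from 6797 ± 215 to 4742 ± 113 CPM and Ftl1 from 2682 ± 130.4 to 2084 ± 136 CPM (SD, n = 3 each), log2 fold changes of -0.52 and -0.36. Taldo1, of the pentose phosphate pathway, fell by 0.62 on the log2 scale (standard error 0.03). Slc7a11, the cystine importer that feeds glutathione synthesis, went from 85.2 ± 1.96 to 29.9 ± 1.30 CPM (SD, n = 3 each), a log2 fold change of -1.51 (standard error 0.06, adjusted p = 3.32e-16 in edgeR's quasi-likelihood test). Hmox1, which breaks down heme, fell by 0.72 (standard error 0.05), and Txn1, the thioredoxin that Txnrd1 reduces, fell by 0.47 (standard error 0.05).

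Genes on the other lists, which were made by chemistry, were more mixed. A gene on these lists can also be an Nrf2 target, and a difference between targets and other genes was not tested. By the same rule 24.6% of all tested genes fell and 20.8% rose, so counts near these shares say little about a list. Of 22 tested glutathione enzymes, 8 rose, 5 fell and 9 were not past the threshold, with a median log2 fold change of -0.043. Gpx1, the cytosolic glutathione peroxidase, fell by 0.80 on the log2 scale (standard error 0.04) and the glutaredoxin gene Glrx by 0.77 (standard error 0.04), while Gpx4, which reduces lipid peroxides, was at 248 ± 18.8 and 242 ± 7.24 CPM (SD, n = 3 each), with overlapping groups. Of 16 other thioredoxin and peroxiredoxin genes, 7 fell, 3 rose and 6 were not past the threshold. Prdx5, whose peroxiredoxin is found in mitochondria, peroxisomes and cytosol, went from 492 ± 20.6 to 206 ± 8.84 CPM (SD, n = 3 each), a log2 fold change of -1.25 (standard error 0.04). Prdx6 was at 179.7 ± 4.38 and 184 ± 5.27 CPM (SD, n = 3 each), with overlapping groups, and was past the threshold only with library size (0.13) and upper quartile scaling (0.094), as higher, and with scaling to the T cell markers (-0.563), as lower. Library size and upper quartile scaling raise the median of all genes to 0.11 and 0.083. Txnip, an inhibitor of thioredoxin, rose by 0.42 (standard error 0.04). Scaling to the T cell markers shifts all genes by a median of -0.593, and Txnip was then at -0.18, above the all-gene median of -0.57.

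Of the dismutases and catalase, Sod2, the mitochondrial superoxide dismutase, fell by 0.83 on the log2 scale (standard error 0.04) and Cat, the catalase gene, by 0.55 (standard error 0.04). Sod1, the cytosolic dismutase, was at 0.14 (standard error 0.04), past the threshold but with overlapping groups, and the call was lost without control replicate 1 (0.090) or DB2313 replicate 1 (0.11). Sod3 was not tested. Of 8 tested genes of NADPH supply, 2 were higher, 3 lower and 3 not past the threshold, where 20.8% of all tested genes were higher and 24.6% lower. Nadk, the cytosolic NAD kinase, fell by 0.43 (standard error 0.04), Mthfd2, a mitochondrial folate enzyme, fell by 0.22 (standard error 0.04), and Idh2, the mitochondrial NADP-dependent isocitrate dehydrogenase, rose by 0.32 (standard error 0.05). With the same shift of all genes, Idh2 was at -0.27 when scaled to the T cell markers.

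Over these lists, 18 of the 78 tested genes were higher and 37 lower, against 20.8% and 24.6% of all tested genes. The median log2 fold change was -0.20. The limit of 1, which 6.67% of all tested genes also passed, was passed by 8. Besides Slc7a11 and Prdx5, these were Idh1, Pir, Mgst1, Msrb1 and Aldh1l1, which were lower, and Gpx3, a secreted glutathione peroxidase, which was higher. These 6 were chosen after their values were seen. Pir lay inside the limit without DB2313 replicate 3 (-0.83), Mgst1 with library size scaling (-0.945), upper quartile scaling (-0.98) and without DB2313 replicate 1 (-0.997), Msrb1 with library size scaling (-0.98), and Gpx3 with scaling to the T cell markers (0.74). Gpx3 went from 49.95 ± 2.48 to 126 ± 3.74 CPM (SD, n = 3 each), a log2 fold change of 1.34 (standard error 0.05).

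**Figure D4:**
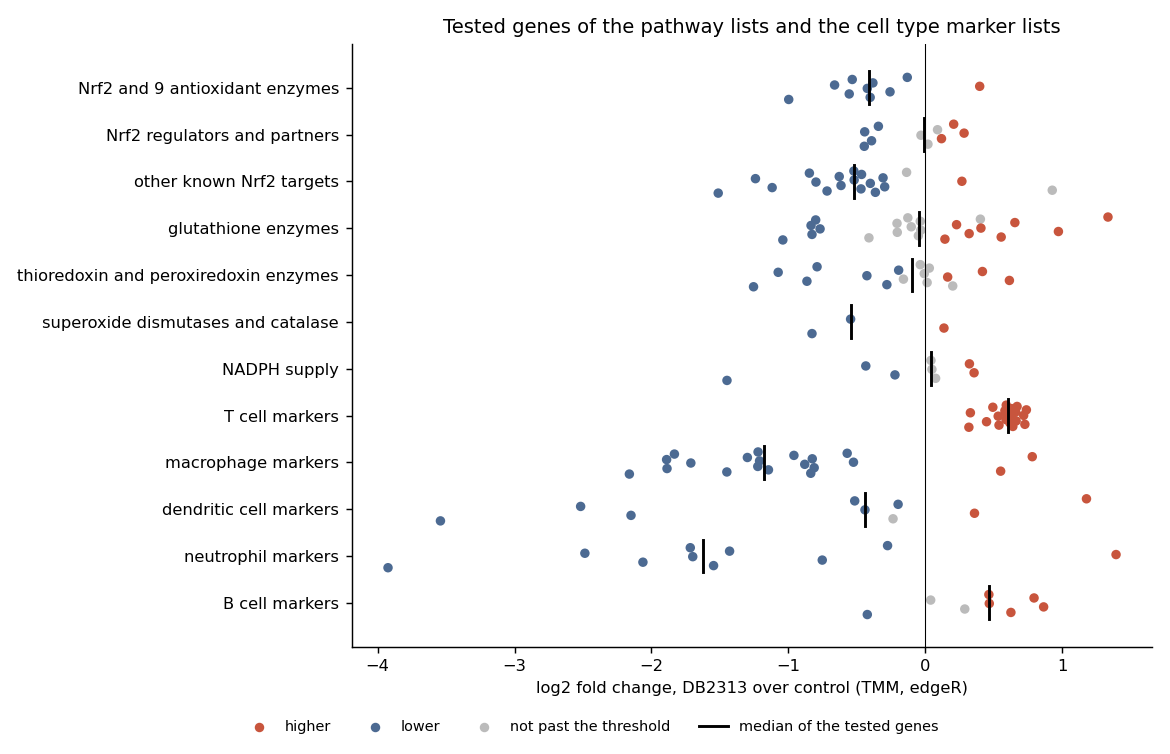
Log2 fold change from control to DB2313 (horizontal axis, edgeR with TMM) of each tested gene of the pathway and marker lists, colored by whether it was higher, lower or not past the threshold, with a line at the median. Nrf2 with its 9 listed enzymes (median -0.41) and its other known targets (median -0.52) lie between the T cell markers (0.61) and the macrophage markers (-1.18). The median of all tested genes (0.019, not drawn) also lies between those of the marker lists named here.

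Markers of other blood cells moved as well, where 20.8% of all tested genes were higher and 24.6% lower. Neutrophil markers took 0.193% to 0.194% of the counts in the control group and 0.0724% to 0.0743% with DB2313, and 9 of 10 fell. Of 9 tested dendritic cell markers, 6 fell and 2 rose, and they took 0.0828% to 0.0844% and 0.0731% to 0.0761% of the counts, while Siglech had no counts in any library. Of 8 B cell markers, 5 rose and 1 fell, and they took 0.00567% to 0.00598% of the counts in the control group and 0.00835% to 0.00853% with DB2313. No library of either cell type alone was analysed here, so the counts of the 10 genes could not be divided between T cells and the cocultured cells.

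The direction of the 10 genes relative to the T cell markers was read from a fit with the libraries scaled to the counts of those markers. All 10 were then lower, with log2 fold changes from -1.59 in Me1 to -0.20 in Gclc, as were 69 of the 78 other pathway genes. This setting shifts all genes alike, by a median of -0.593, and called 77.6% of all tested genes lower and 1.09% higher, so that these counts say little about the 10 genes. Gclc at -0.20 lay above the all-gene median of -0.57, and the other 9 genes lay below it. With library size scaling, which raises the median of all genes to 0.11, Gclc was at 0.49 and Nfe2l2 at -0.16, and 8 of the 10 were lower and 1 higher, against 19.2% and 33.1% of all tested genes. Nqo1, Me1, Osgin1, Gsr, Txnrd1, Srxn1, Prdx1 and Nfe2l2 were lower past the threshold under each setting in the plot of 5 settings.

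**Figure D5:**
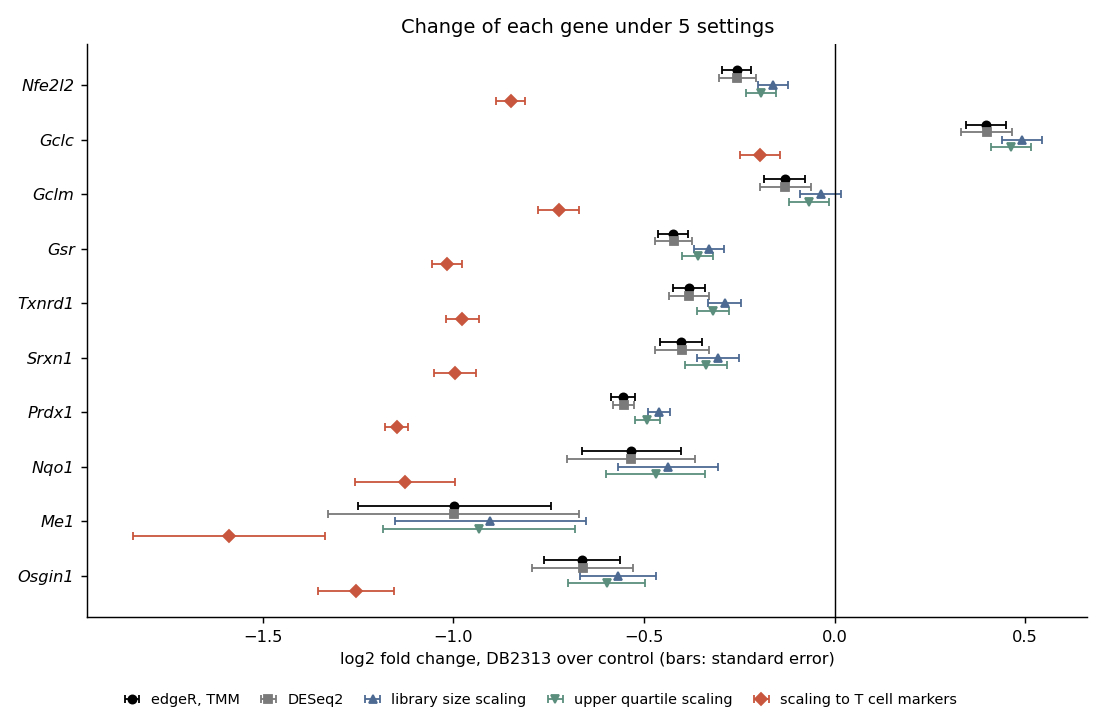
Log2 fold change from control to DB2313 (horizontal axis, with standard errors) of the 10 genes under edgeR with TMM, DESeq2, library size scaling, upper quartile scaling and scaling to the T cell markers. Gclc lies at 0.40 to 0.49 under the first 4 and at -0.20 under the last, and the other genes lie below 0 under all 5.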

How the data were processed

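Total RNA of 6 samples was sequenced. The authors deposited raw read counts per gene. GEO's processing notes name CASAVA 1.8, HISAT2 2.0.5 and featureCounts 1.5.0-p3, whereas the paper's methods name LifeScope. Genome build, strandedness and treatment of reads with several matches were not given in the sources used here. Of 54409 genes shared with GENCODE mouse release M21, 98.3% had its GRCm38 coordinates, the 10 genes included. Samples were grouped by their labels.

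Counts were filtered (filterByExpr), scaled by TMM and tested with edgeR 4.0.16 (glmQLFit and glmQLFTest) in R 4.3.3, on all genes and without covariates. Standard errors were obtained from the log2 fold change and its F statistic. DESeq2 1.42.0, other scalings and filters, a replicate block and leaving out each sample were alternatives. The edgeR fit was tested on simulated counts in which few genes changed, equally many in each direction. That test did not cover shifts as wide as those seen here. The genes and lists were chosen with earlier results of these data known. Besides the 10 genes, the 3 most highly counted tested genes of each list and Keap1, Bach1, Hmox1, Slc7a11, Txn1 and Txnip were named. Replicates differed by more than counting noise (chi-square per gene 2.53 to 4.0). Genes that overlap 5 of the 10 genes had at most 27 counts in a library.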

Additional observations from a re-analysis of the deposited data

How the results depend on the processing

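Each of the 10 genes was refitted under 14 alternatives, and 132 of the 140 values changed neither direction nor call. Scaled to the T cell markers, Gclc was at -0.196, a setting that shifts all genes by a median of -0.593. The Gclm fall was no longer past the threshold with DESeq2 (-0.129), library size scaling (-0.036) or upper quartile scaling (-0.067), and leaving out each sample gave values from -0.173 to -0.055. It was lost without DB2313 replicate 1 and without each control replicate. With scaling to the T cell markers 0 of the 10 genes were higher, and of the other pathway genes 1 was higher and 69 lower, a setting that called 1.09% of all tested genes higher and 77.6% lower. With glmTreat, which tests against an absolute log2 fold change of 0.3, 0 of the 10 were higher and 4 lower, against 5.16% and 12.2% of all tested genes. The cause was not tested, apart from the stricter threshold of glmTreat. The library ratios kept their direction without each sample.

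With the replicate block, 9 of the 10 genes were lower and 1 higher, as without it, against 23.7% and 19.6% of all tested genes. Samples with the same number did not deviate together (correlations from -0.004 to 0.019 across genes), so the numbers were not taken to pair the samples.

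Of 406 values of 29 other named genes, 385 changed neither, 6 were weaker, 6 stronger and 9 reversed. Calls were lost in Cul3 and Sod1 and gained in Keap1, Prdx6 (0.125 with library size and 0.094 with upper quartile scaling) and Gpx4 (-0.629 with scaling to the T cell markers). The median of all genes was 0.114 with library size and 0.083 with upper quartile scaling. Reversed with scaling to the T cell markers were Cul3 (-0.474), Idh2 (-0.270), Keap1 (-0.503), Prdx6 (-0.563), Sod1 (-0.456) and Txnip (-0.175). Gpx4 turned to 0.058 with library size scaling, 0.027 with upper quartile scaling from -0.036, and ranged from -0.091 to 0.020 without each sample. Low counts limit the precision of Me1, whose standard error was the largest of the 10.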
